A study of Mus musculus with 9 samples.

Results

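BV2 microglial cells that had spent 24 h in 1% oxygen with 100 µM ethanolamine were set against the untreated control cells of the same experiment, to see which features of the starting cells were regained, which stayed lost and which went past their starting level. The comparison set 6 of the 9 libraries against each other, the 3 supplemented and the 3 control ones, with the spread estimated over all 9. It covered 11802 of the 27339 genes above 0 in at least 1 library, namely those averaging 1 FPKM or more over all 9. FPKM are fragments per unit of gene length and of mapped fragments. BV2 is an immortalised mouse microglial line, labelled wild type, and all libraries came from it. Controls were labelled 0 h and received neither low oxygen nor ethanolamine, the supplemented cells received both for 24 h, and another 3 libraries had 24 h at 1% oxygen alone. Oxygen and time both differ between supplemented and control cells, so their parts in a difference cannot be told apart; the hypoxia libraries differ from the supplemented ones in ethanolamine alone, as labelled. The treatment tag of the controls names adipogenic differentiation, which goes against their titles and the design. The adipocyte genes Adipoq, Cfd, Lep and Plin1 were listed at 0 in all 9 libraries. Of the other 3 adipocyte markers Fabp4, a fatty acid-binding protein, had 21.8, 16.0 and 18 FPKM in control and 20.4, 20.6 and 19.2 FPKM in supplemented libraries, and all 7 summed to 16.0 to 21.8 FPKM and 19.5 to 20.7 FPKM.

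Cells short of oxygen stop degrading the hypoxia-inducible factors (HIF), which then bind a short core sequence in promoters and enhancers and switch on glycolysis, glucose uptake, mitophagy and growth factors, while proliferation usually slows. Microglia, the resident macrophages of the central nervous system, also change their cytokine output under low oxygen. Ethanolamine is a head group of membrane phospholipids, and cells build phosphatidylethanolamine from it by phosphorylation, activation to the CDP form and transfer to a lipid.

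Library sums were 324121 to 370322 FPKM, 11556 to 11924 genes reached 1 FPKM, and the relative depth read from low values differed 1.32-fold; the absolute depth is unknown. Log2 values correlated at 0.895 to 0.905 between control and supplemented libraries and at 0.974 to 0.983 within these 2 groups. On the second principal component, which carried 6.21% of the variance, supplemented library 1 scored 3.72, while supplemented libraries 2 and 3 scored -17.8 and -21.1. Ribosomal RNA-like transcripts took 1.68% to 6.52% of the FPKM sum in controls and 5.92% to 10.5% in supplemented libraries. Of 12 microglia and macrophage markers 10 were above the filter, with C1qa listed at 0, and their summed level was 998 to 1202 FPKM in control and 1280 to 1341 FPKM in supplemented libraries. Summed markers of astrocytes, neurons, oligodendrocytes, fibroblasts and T cells stayed at or below 1.06 FPKM in both groups. No source used here states whether counting used strand, so reads of genes that overlap another on the opposite strand cannot be told apart from that gene's. Among the genes named this touches Cdc20, Ankrd37, Hirip3, Csf1r, Cx3cr1, Pfkp, Shmt1, Slc2a1, Tk1, Plod2, Pld2 and Manf, with the partner of Pfkp, Pitrm1, at 90.4 FPKM. Reads may also be shared with genes on the same strand. Examples are Gm27927 with Xist (140 FPKM), Gm27505 with Neat1 (51.5 FPKM), and Gorasp1 and Csrnp1 with Cx3cr1 (6.10 and 6.65 FPKM). In bulk RNA fewer cells of a type and less RNA per cell cannot be told apart. The labels do not tell whether libraries are separate cultures, so p-values measure only the spread between these samples, which may be technical.

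Most genes that hypoxia changed stayed changed with ethanolamine present, 6072 of 7011. In limma, with Benjamini-Hochberg adjustment over all 11802 genes, 6905 genes differed between supplemented and control cells (58.5%), of which 2840 were higher (24.1%) and 4065 lower (34.4%). An absolute log2 change of at least 1 was reached by 1603 of them (13.6%), 746 higher (6.32%) and 857 lower (7.26%). The levels of the 3 supplemented and the 3 control libraries did not overlap in 7611 genes (64.5%). Hypoxia alone against the same controls called 7011 genes (59.4%), and supplemented against hypoxia cells called 67 (0.568%), 14 higher (0.119%) and 53 lower (0.449%). The comparisons share libraries, so their values are given side by side below. For every list count of supplemented against control cells, the shares over all tested genes are 24.1% higher and 34.4% lower.

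Bnip3, a receptor for mitophagy and one of the strongest markers of HIF activity, had 6.68, 7.52 and 8.42 FPKM in the controls and 271, 317 and 322 FPKM in the supplemented libraries. All supplemented libraries lay far above all controls, and the hypoxia libraries lay at 289 to 302 FPKM. The rise was 40.2-fold on mean FPKM (log2 change 5.24 on the log2(FPKM + 0.5) scale, SE 0.09, limma adjusted p = 6.03e-09). Selenbp1, a selenium-binding methanethiol oxidase, had 3.43, 2.82 and 2.66 FPKM in control and 183, 201 and 191 FPKM in supplemented cells (log2 change 5.79, SE 0.12, limma adjusted p = 1.16e-08). On this scale it had the highest log2 change among called genes averaging 5 FPKM or more. Its near-identical paralog Selenbp2 stood at 3.68, and reads of these copies may be shared, so both values are uncertain. Others among the 12 highest were Mmp12, a macrophage elastase (5.11), F10, coagulation factor X (4.37), Egln3, a HIF prolyl hydroxylase (4.20), Sdc3, a heparan sulfate proteoglycan (4.08), Nos2, the inducible nitric oxide synthase (3.69), Ppp1r3b, a glycogen-targeting phosphatase subunit (3.68), Ankrd37 (3.60) and Prelid2 (3.47). Their calls held in all 19 other settings. Mmp12 was near 0 in control, so the size of its change depends on the pseudocount.

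HIF targets stayed high as a list. Of 51 tested members 42 were higher and 4 lower, against 24.1% and 34.4% of all tested genes, with a median log2 change of 1.65 beside -0.08 over all genes. For hypoxia alone the same list had 43 higher and 4 lower with a median of 1.58, and none of the 51 was called between supplemented and hypoxia cells. Slc2a1, the glucose transporter, rose from 32.9 to 229.9 FPKM, and Vegfa, an angiogenic growth factor, from 13.5 to 30.8 FPKM (log2 changes 2.79 and 1.16). Hmox1, heme oxygenase, rose from 278 to 894 FPKM and Cdkn1a, a cyclin-dependent kinase inhibitor, from 14.3 to 155 FPKM (log2 changes 1.69 and 3.39). The 4 lower members, picked out after their values were seen, were Car12, a carbonic anhydrase (-1.29), Cxcr4, a chemokine receptor (-1.23), Stc2, a secreted glycoprotein (-0.84), and Tfrc, the transferrin receptor (-0.68). The HIF subunit transcript Hif1a had 39.2, 45.8 and 42.8 FPKM in control and 38.8, 39.0 and 38.6 FPKM in supplemented cells (log2 change -0.13, SE 0.07, limma adjusted p = 0.136). The promoters of Bnip3 and Ankrd37, a gene induced by hypoxia, are shown because both genes stayed high and carry several copies of the hypoxia core. The core was searched as ACGTG or GCGTG on both strands, with overlapping matches counted, in RefSeq windows of 300 bases around the annotated start on GRCm38.p6. Capitals mark the matches, 5 in Bnip3 (chr7:138909457-138909756, minus strand) and 4 in Ankrd37 (chr8:45999801-46000100, minus strand).
Bnip3: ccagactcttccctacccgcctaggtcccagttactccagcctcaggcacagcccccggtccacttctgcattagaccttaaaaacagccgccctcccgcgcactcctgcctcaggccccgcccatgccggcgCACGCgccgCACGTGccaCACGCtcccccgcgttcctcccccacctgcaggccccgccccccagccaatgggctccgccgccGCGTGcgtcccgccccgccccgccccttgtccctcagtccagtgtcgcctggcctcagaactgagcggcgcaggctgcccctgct
Ankrd37: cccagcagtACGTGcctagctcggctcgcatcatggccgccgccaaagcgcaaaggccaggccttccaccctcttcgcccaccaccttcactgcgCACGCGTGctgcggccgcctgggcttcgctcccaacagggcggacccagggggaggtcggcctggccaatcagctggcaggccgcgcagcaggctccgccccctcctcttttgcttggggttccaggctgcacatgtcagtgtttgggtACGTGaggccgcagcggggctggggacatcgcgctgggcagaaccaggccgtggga
At least 1 match lay in 34 of the 40 listed HIF targets with a window (85%), in 65.3% of the 7940 tested genes with a window and in 43.8% of all 32851 windows. Among the lowered lists below, it lay in 39 of 54 mitosis genes (72.2%) and 25 of 47 replication genes (53.2%) with a window. A match is a description of letters and does not show binding.

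**Figure D1:**
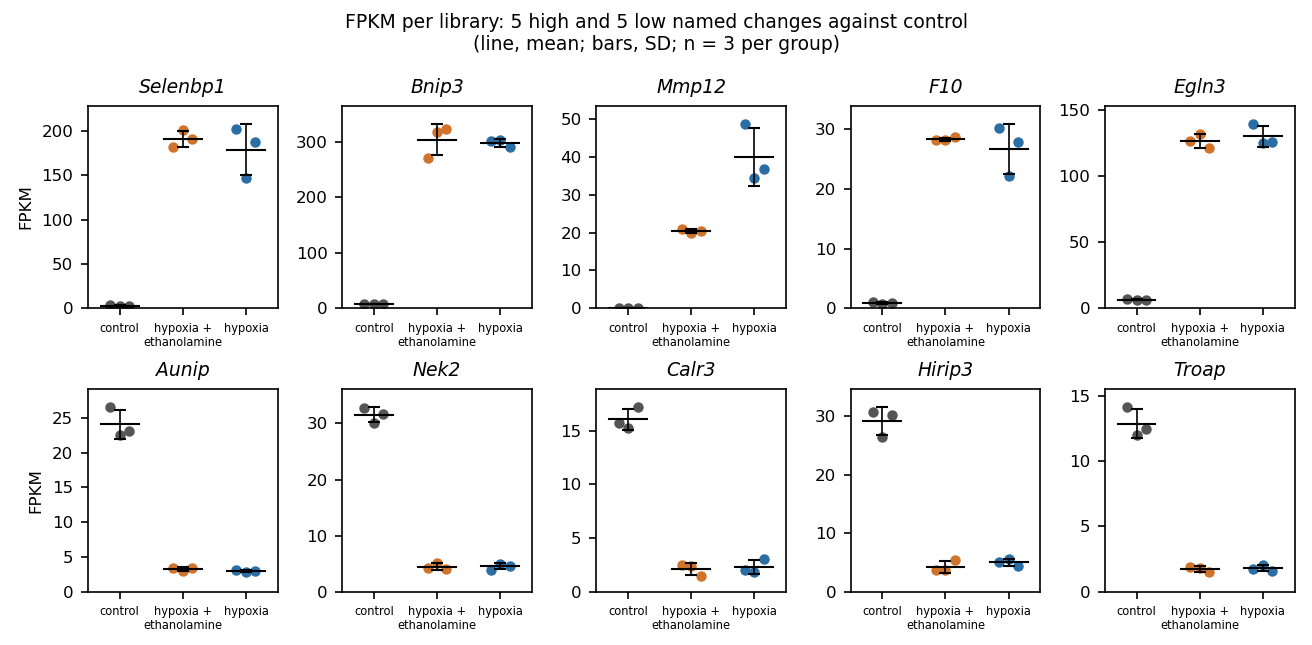
FPKM (linear axis from 0) of 5 of the 12 highest and the 5 lowest named changes between supplemented and control cells, 1 point per library, with the mean as a line and the SD as bars (n = 3 per group). In all 10 genes the supplemented libraries lie apart from the controls; Mmp12 averaged 20.4 FPKM in supplemented and 40.0 FPKM in hypoxia cells, and both stayed above 0.106 FPKM in control.

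Glycolysis kept its hypoxic level. Of 17 tested genes 16 were higher and 1 was lower, with a median log2 change of 1.16 (hypoxia alone 16 and 1, median 1.07). Pgk1, phosphoglycerate kinase, had 403, 378 and 394 FPKM in control and 1372, 1434 and 1333 FPKM in supplemented libraries, which did not overlap (log2 change 1.81, SE 0.08, limma adjusted p = 2.27e-07). Aldoc, an aldolase, rose from 11.1 to 46.6 FPKM, Pfkl, a phosphofructokinase, from 15.5 to 57.7 FPKM and Pfkp, another, from 28.2 to 86.4 FPKM. Bpgm, which diverts an intermediate to bisphosphoglycerate in red cells, was the lower member (log2 change -0.74, limma adjusted p = 0.000352) and was named after its value was seen. Of 37 listed collagen modification and matrix genes 16 were tested, and 12 were higher and 1 lower (median 0.51). The prolyl hydroxylases P4ha2 and P4ha1 stood at 3.35 and 1.52 and the lysyl hydroxylase Plod2 at 3.13.

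The proliferative programme of the starting cells was not regained. All 62 tested mitosis genes were lower in supplemented than in control cells, with a median log2 change of -1.91 (hypoxia alone 62 lower, median -2.04), against 34.4% of all tested genes. All 58 tested genes of DNA replication and S phase were lower as well (median -1.44; hypoxia alone 58, median -1.66). Neither list had a member called between supplemented and hypoxia cells; 56 of 62 mitosis genes and 52 of 58 replication genes had a supplemented mean above that of hypoxia on the log2 scale, beside 6287 of all 11802 genes. Cdc20, which activates the anaphase-promoting complex, had 134, 114 and 132 FPKM in control and 18.7, 21.9 and 22.6 FPKM in supplemented libraries. The hypoxia libraries had 13.1, 18.1 and 17.9 FPKM, so both hypoxic groups lay far below control. The log2 change against control was -2.56 (SE 0.13, limma adjusted p = 5.76e-07). Plk1, a mitotic kinase, went from 71.8 ± 4.55 to 13 ± 1.36 FPKM (SD, n = 3), a log2 change of -2.42 with SE 0.12 and limma adjusted p = 4.21e-07, and Mki67, the proliferation antigen, from 96.8 ± 1.13 to 20.4 ± 1.44 FPKM (SD, n = 3; log2 change -2.22). Further named lows were Aunip, a partner of Aurora A (-2.70), Nek2, a centrosome kinase (-2.69), Gins1 of the replicative helicase (-2.50), Mybl2, a cell cycle transcription factor (-2.47), and the ribonucleotide reductase subunit Rrm2 (-2.15).

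Windows of Cdc20 and Plk1 are printed because genes of late cell cycle fell together and often share 2 promoter elements, the CCAAT box and the cell cycle homology element. Both were searched on both strands, as CCAAT and as TTTGAA, with overlapping matches counted. Capitals mark them in the RefSeq windows on GRCm38.p6: Cdc20 at chr4:118437294-118437593 on the minus strand has 2 CCAAT matches and 1 TTTGAA match, and Plk1 at chr7:122159185-122159484 on the plus strand has 1 of each.
Cdc20: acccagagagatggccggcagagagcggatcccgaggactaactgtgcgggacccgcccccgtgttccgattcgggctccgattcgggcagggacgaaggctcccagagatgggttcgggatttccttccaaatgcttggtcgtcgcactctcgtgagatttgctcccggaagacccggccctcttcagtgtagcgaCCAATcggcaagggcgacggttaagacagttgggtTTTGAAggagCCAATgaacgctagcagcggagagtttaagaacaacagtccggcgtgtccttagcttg
Plk1: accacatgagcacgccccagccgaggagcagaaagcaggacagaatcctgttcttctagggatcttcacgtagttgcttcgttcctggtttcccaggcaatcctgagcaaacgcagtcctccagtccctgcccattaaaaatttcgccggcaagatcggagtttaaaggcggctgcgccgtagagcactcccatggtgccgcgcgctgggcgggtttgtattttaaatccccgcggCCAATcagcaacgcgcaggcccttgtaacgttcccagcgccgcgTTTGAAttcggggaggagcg
TTTGAA lay in 37 of 54 mitosis genes with a window (68.5%), in 7 of 47 replication genes (14.9%) and in 11.7% of the tested genes with a window. CCAAT lay in 75.9% of the mitosis, 61.7% of the replication and 39.2% of the tested genes with a window. Over all windows the shares were 17.9% for TTTGAA and 37.4% for CCAAT.

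Replication-dependent histones went the opposite way, 22 higher and 6 lower of 43 tested from 69 listed. The median was 0.53 in both hypoxic groups. Hist1h4m, an H4 gene, had 1.55, 3.20 and 3.54 FPKM in control and 23.9, 21.4 and 20.1 FPKM in supplemented libraries (log2 change 2.83, SE 0.23, limma adjusted p = 8.46e-06), and Hist1h2af, an H2A gene, changed by -2.47. Copies of these genes are nearly identical, so single values are uncertain.

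Of 58 ribosome biogenesis genes 57 were lower and none higher (median -0.74; hypoxia alone 57 lower, median -0.85), with Utp20 of the small-subunit processome at -1.72, Grwd1 at -1.57 and the nucleolar phosphoprotein Nolc1 at -1.37. Nucleotide synthesis had 28 lower and 2 higher of 32 (median -1.08), with the serine hydroxymethyltransferase Shmt1 at -1.93, thymidine kinase Tk1 at -1.72 and thymidylate synthase Tyms at -1.69. Aminoacyl-tRNA synthetases had 15 lower and 2 higher of 20 (median -0.40), among them Vars at -1.06. Genes of the integrated stress response had 30 lower and 3 higher of 42 (median -0.44), with the amino acid transporter Slc7a5 at -1.63, Shmt2 at -1.65 and the mTORC1 inhibitor Ddit4 at 1.5. Cytosolic chaperones had 20 lower and 2 higher of 28 (median -0.36), led by the co-chaperone Fkbp4 at -1.31, and the proteasome had 22 lower and 3 higher of 32 (median -0.33). Cytosolic ribosomal protein genes had 20 higher, near the 24.1% of all tested genes, and 2 lower of 82 with a median of 0.16, which turned to -0.02 with 13 higher and 12 lower under quantile normalization.

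In 4 mitochondrial lists fewer genes were called lower than control with ethanolamine than in hypoxia alone on the deposited scale, although no member was called between supplemented and hypoxia cells. Of 27 tricarboxylic acid cycle genes 15 were lower and 1 higher than control (median -0.26), beside 21 lower and 1 higher in hypoxia alone (median -0.43). Ogdh, of the oxoglutarate dehydrogenase complex, had 59.7, 53.9 and 56.0 FPKM in control and 31.8, 29.0 and 29.7 FPKM in supplemented libraries, close to the 26.8, 29.9 and 31.1 FPKM of hypoxia (log2 change against control -0.89, SE 0.07, limma adjusted p = 8.31e-06). Idh2, the mitochondrial isocitrate dehydrogenase, stayed lower at -0.78 and citrate synthase, Cs, at -0.50. Suclg2, Pcx, Idh3g, Pdhb and Aco1, named after their values were seen, were called in hypoxia alone but not with ethanolamine. Suclg2, a succinyl-CoA ligase subunit, had 15.9, 17.6 and 11.6 FPKM in control, 10.9, 8.01 and 7.91 FPKM in hypoxia and 11.3, 12.4 and 13.4 FPKM in supplemented libraries. Its supplemented libraries overlapped the controls and lay above the hypoxia libraries (log2 change against control -0.26, limma adjusted p = 0.215). A call that is lost does not show a difference between the hypoxic groups.

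Mitochondrial ribosomal proteins had 45 lower and 2 higher of 77 (median -0.35), beside 54 lower and 1 higher in hypoxia (median -0.54). Nuclear-encoded respiratory chain genes had 19 higher, near the 24.1% of all tested genes, and 9 lower of 79 (median 0.08), a balance that turned to 15 higher and 16 lower when libraries were rescaled without ribosomal RNA-like and mitochondrial transcripts. In hypoxia 7 were higher and 20 lower (median -0.07). Ndufv3, a complex I subunit, stood at 1.95 and Cox7a2l, a supercomplex assembly factor, at 1.05. Of the 13 messenger RNAs encoded by mitochondrial DNA, 6 were higher and 1 lower (median 0.12; hypoxia alone 2 higher and 4 lower, median -0.19), but quantile normalization turned this to 1 higher and 6 lower with a median of -0.28. All 13 had a supplemented value above that of hypoxia, beside 6287 of 11802 genes. Cytochrome b, mt-Cytb, had 3535, 3524 and 3604 FPKM in control, 3340, 3291 and 3291 FPKM in supplemented and 2556, 2774 and 2691 FPKM in hypoxia libraries. The supplemented libraries lay between the others without overlap, and limma called hypoxia against control (log2 change -0.41, adjusted p = 0.000653) but neither supplemented against control (-0.10, adjusted p = 0.22) nor supplemented against hypoxia (0.31, adjusted p = 0.0971). The oxidase subunit mt-Co1 rose from 7246 to 9162 FPKM (log2 change 0.34, limma adjusted p = 0.00635), a call lost without the filter on low values (limma adjusted p = 0.602) and a direction that quantile normalization reversed to -0.71. The genes mt-Nd5 and mt-Nd6 overlap on opposite strands, so their reads cannot be told apart.

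**Figure D2:**
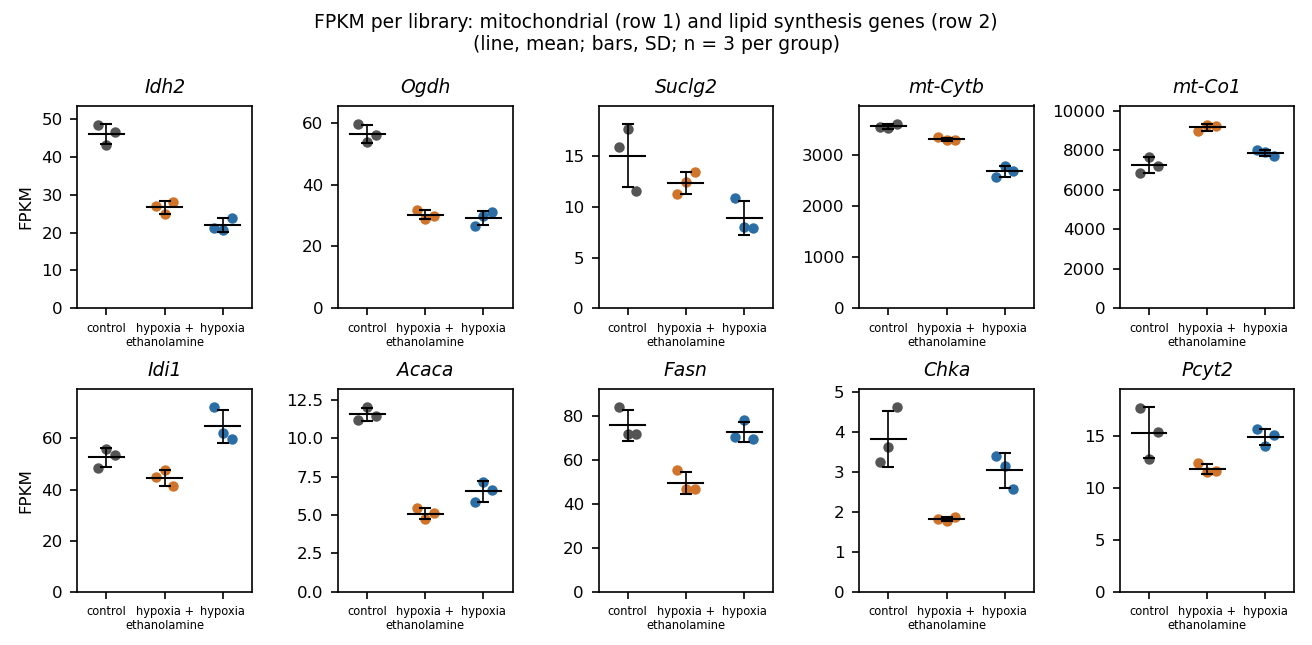
FPKM (linear axis from 0) of 5 mitochondrial genes (row 1) and 5 lipid synthesis genes (row 2), chosen after their values were seen, 1 point per library, with the mean as a line and the SD as bars (n = 3 per group). Idh2 and Ogdh stay low in both hypoxic groups, mt-Cytb lies between control and hypoxia with ethanolamine, and Acaca, Fasn and Chka have their lowest mean in the supplemented libraries.

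In lipid synthesis some genes, such as Fasn and Chka described below, fell below the starting level with ethanolamine and were not called in hypoxia alone. Of 25 cholesterol synthesis and uptake genes 10 were lower and 5 higher than control (median -0.24), near the 34.4% and 24.1% of all tested genes. Hypoxia alone had 5 lower and 12 higher (median 0.07). With median-of-ratios scaling the supplemented median was -0.15, with 7 lower and 6 higher. Idi1, isopentenyl diphosphate isomerase, had 48.6, 55.8 and 53.7 FPKM in control, 72.1, 62.3 and 59.7 FPKM in hypoxia and 44.9, 47.6 and 41.4 FPKM in supplemented libraries. Every supplemented library lay below every control and hypoxia library. The call below control (log2 change -0.24, SE 0.09, limma adjusted p = 0.0446) held in 9 of 19 other settings, and the call below hypoxia (-0.53, limma adjusted p = 0.0436) in 5 of 18. Hmgcs1, Mvd, Fdft1, Nsdhl and Stard4, named after their values were seen, were called in hypoxia but not with ethanolamine. Hmgcs1, a synthase early in the pathway, averaged 28.9 FPKM in control, 36.2 FPKM in hypoxia and 30.2 FPKM in supplemented cells (limma adjusted p = 0.501 against control). Insig2, a sterol sensor partner, stayed higher at 1.22.

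Of 15 fatty acid synthesis genes 8 were lower and 2 higher (median -0.48; hypoxia alone 7 and 3, median -0.33). Fasn, fatty acid synthase, had 84.0, 71.7 and 71.9 FPKM in control, 70.7, 78.1 and 69.5 FPKM in hypoxia and 55.5, 46.9 and 46.8 FPKM in supplemented libraries. The supplemented libraries were the lowest of all 9 (log2 change against control -0.61, SE 0.09, limma adjusted p = 0.000439; against hypoxia -0.55, limma adjusted p = 0.0436, kept in 4 of 18 other settings). Fasn was named after its values were seen. Elovl6, a fatty acid elongase, stood at -1.29, Acaca, acetyl-CoA carboxylase, at -1.11 and Me1, malic enzyme, at 1.65.

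Of 38 genes that handle ethanolamine and choline 12 were higher and 11 lower, near the 24.1% and 34.4% of all tested genes (median -0.03, or 0.05 with median-of-ratios scaling, where 13 were higher and 8 lower; hypoxia alone 12 and 9). Etnk1, ethanolamine kinase, had 7.04, 8.61 and 8.61 FPKM in control and 8.43, 7.83 and 7.90 FPKM in supplemented libraries, which overlapped (limma adjusted p = 0.992), beside a hypoxia mean of 9.83 FPKM. Pcyt2, which makes CDP-ethanolamine, had 17.7, 12.8 and 15.4 FPKM in control and 12.4, 11.5 and 11.6 FPKM in supplemented libraries. Every supplemented library lay below every control (log2 change -0.34, SE 0.11, limma adjusted p = 0.0208), a call that held in 13 of 19 other settings. Selenoi, the ethanolamine phosphotransferase, fell from 3.85 to 2.45 FPKM (log2 change -0.56, limma adjusted p = 0.00462), with 2.39 FPKM in hypoxia. Chka, a choline and ethanolamine kinase, fell from 3.84 ± 0.702 to 1.83 ± 0.0591 FPKM (SD, n = 3), a log2 change of -0.89 with SE 0.13 and limma adjusted p = 0.000382, and averaged 3.04 FPKM in hypoxia. The phosphatidate phosphatases Lpin1 (1.30) and Lpin2 (1.09) and the phospholipase Pld2 (0.86) stayed higher than control.

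**Figure D3:**
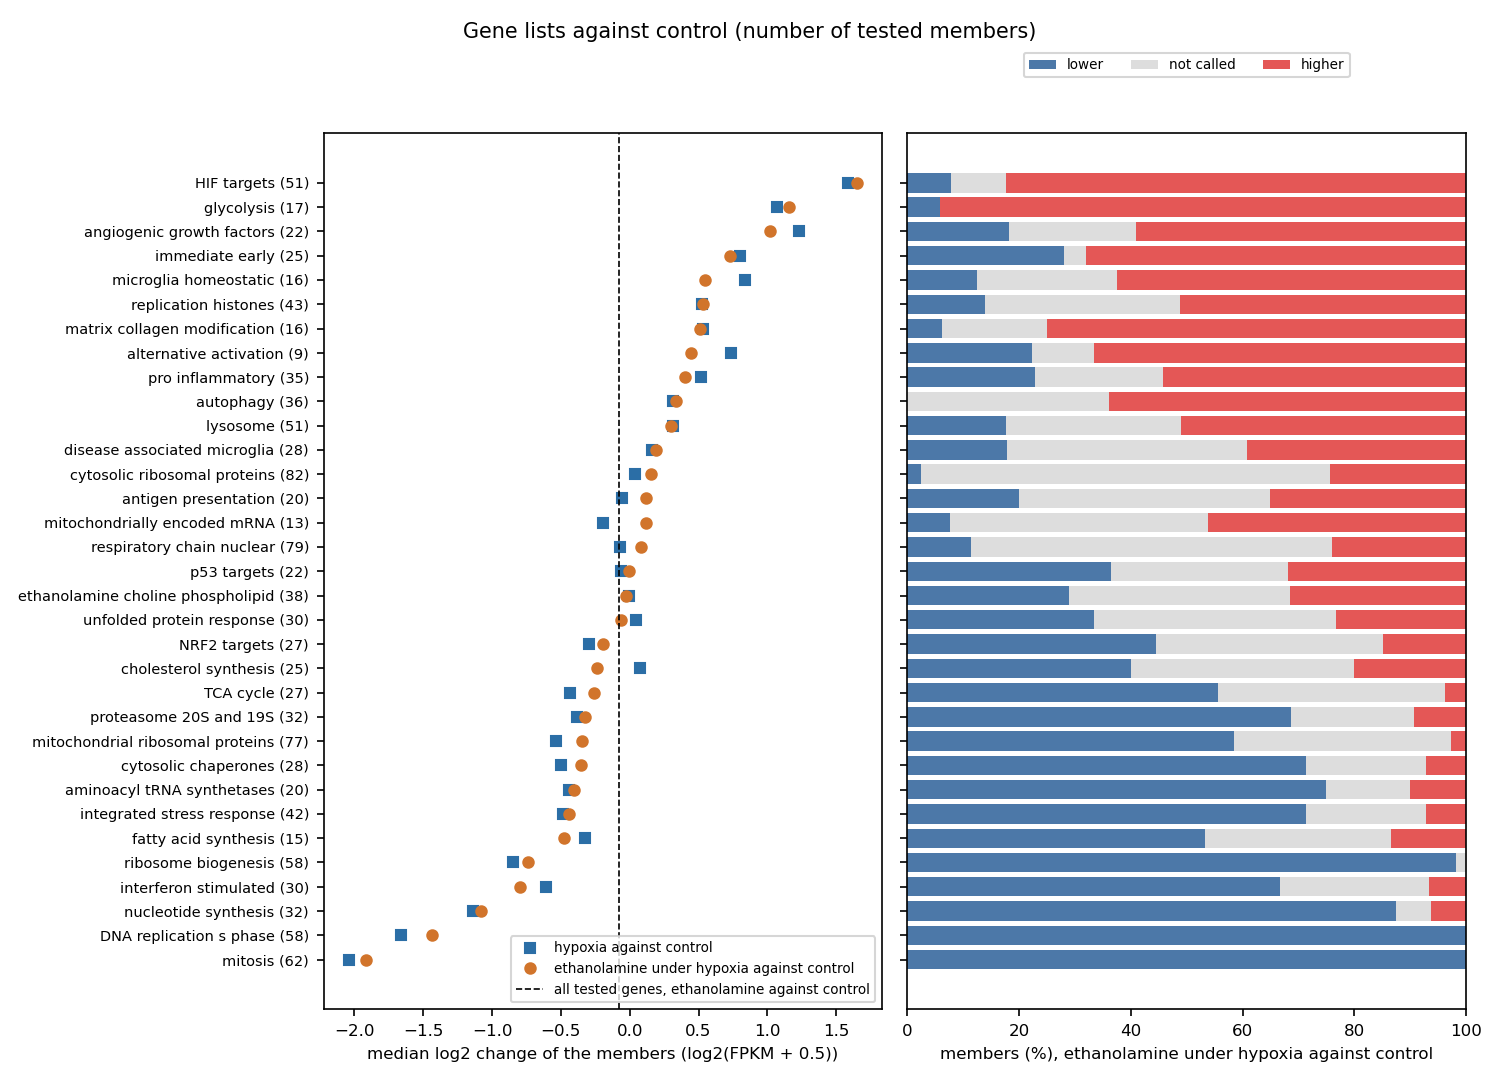
Left, median log2 change of each gene list with at least 5 tested members against control, for hypoxia alone (squares) and for ethanolamine under hypoxia (circles), with the median over all tested genes of -0.08 as a dashed line. Right, the share of tested members called lower, not called or higher in ethanolamine under hypoxia against control; mitosis and DNA replication are lower throughout, and HIF targets have the highest median at 1.65.

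Il1b, Cxcl2 and Ptgs2 were still higher than control, but less far than in hypoxia alone. Of 35 pro-inflammatory genes 19 were higher and 8 lower than control (median 0.40; hypoxia alone 23 and 8, median 0.52), and 5 were lower in supplemented than in hypoxia cells, beside 0.449% of all tested genes. Il1b, the pro-form of interleukin-1β, had 2.31, 2.10 and 2.04 FPKM in control, 35.5, 23.7 and 30.0 FPKM in hypoxia and 11.6, 12.1 and 12.5 FPKM in supplemented libraries. The 3 groups did not overlap, with supplemented cells in between (log2 change against control 2.25, SE 0.13, limma adjusted p = 9.63e-07; against hypoxia -1.25, SE 0.13, limma adjusted p = 0.0153, held in 15 of 18 other settings). Cxcl2, a neutrophil chemoattractant, had 4.93, 4.88 and 3.99 FPKM in control, 115, 84.1 and 81.1 FPKM in hypoxia and 44.9, 36.8 and 40.2 FPKM in supplemented libraries. It too lay in between without overlap (against control 3.01, limma adjusted p = 3.64e-07; against hypoxia -1.17, limma adjusted p = 0.019, kept in 13 of 18). Ptgs2, the inducible prostaglandin synthase, averaged 14.4, 136 and 85.4 FPKM in control, hypoxia and supplemented cells (against hypoxia -0.66, limma adjusted p = 0.0329, kept in 8 of 18). Nos2 had 24.4, 21.7 and 22.4 FPKM in control and 322, 289 and 293 FPKM in supplemented libraries (against control 3.69, SE 0.07, limma adjusted p = 6.03e-09; against hypoxia -0.35, limma adjusted p = 0.0705). Ccl5, a T cell chemoattractant named after its values were seen, averaged 10.2, 11.1 and 6.78 FPKM in control, hypoxia and supplemented cells and was lower with ethanolamine than in either other group (limma adjusted p = 0.0021 and 0.0399). Il6 and Tnf, named after their values were seen, were called in hypoxia but not with ethanolamine. Il6 averaged 2.42, 4.13 and 2.30 FPKM and Tnf 70.8, 88.0 and 75.1 FPKM in control, hypoxia and supplemented cells, and neither was called between the hypoxic groups (limma adjusted p = 0.154 and 0.27).

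Il1b, Cxcl2 and Ptgs2 belong to 36 genes that came part way back, called in the same direction in both hypoxic groups and called towards control in supplemented against hypoxia cells. For 29 the hypoxic change was a rise and for 7 a fall; their median absolute change against control was 1.00 with ethanolamine and 1.69 in hypoxia. Mmp12 had 48.8, 34.5 and 36.7 FPKM in hypoxia and 21.1, 19.8 and 20.4 FPKM in supplemented libraries, with controls at or below 0.14 FPKM. Gipr, the incretin receptor, averaged 0.181, 10.1 and 6.15 FPKM in control, hypoxia and supplemented cells. Mmp12 and Gipr passed the filter only through the hypoxic libraries. Il1rn, the interleukin-1 receptor antagonist, averaged 5.40, 21.6 and 13.6 FPKM and Rnf145, a sterol-responsive ubiquitin ligase, 8.44, 22.8 and 14.0 FPKM. Vwf, the endothelial von Willebrand factor, averaged 1.26, 3.30 and 1.88 FPKM; the 6 endothelial markers summed to 1.84 to 2.22 FPKM in control and 3.52 to 3.98 FPKM in supplemented libraries, none was at 0 in every library, and their part in the result was not tested.

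Only 12 genes met the rule for regained, that is called in hypoxia, called back towards control in supplemented against hypoxia cells and not called against control. In 9 hypoxia had raised the gene (Malat1, Gm11557, Tspoap1, Pde1b, Alcam, Rgl2, Stra6l, Ugcg and B4galt5) and in 3 lowered it (Tbc1d5, Zfp251 and Lrp11). The pseudogene Gm11557 averaged 0.525, 2.07 and 0.711 FPKM in control, hypoxia and supplemented cells. It passed the filter only through the hypoxia libraries, so its return rests on values near the floor. Malat1, a nuclear long noncoding RNA, had 60.2, 86.0 and 72.1 FPKM in control, 176, 245 and 151 FPKM in hypoxia and 80.5, 67.7 and 92.7 FPKM in supplemented libraries. Control and supplemented libraries overlapped and all hypoxia libraries lay above them (against control 0.14, limma adjusted p = 0.555; against hypoxia -1.23, SE 0.20, limma adjusted p = 0.0393, held in 5 of 18 other settings). Alcam, a cell adhesion molecule, averaged 11.6, 17.9 and 12.4 FPKM in control, hypoxia and supplemented cells (against hypoxia -0.51, limma adjusted p = 0.019, held in 12 of 18). Ugcg, which starts glycosphingolipid synthesis, averaged 7.24, 11.2 and 7.93 FPKM, and B4galt5, a galactosyltransferase of the same route, 22.9, 33.9 and 25.3 FPKM. In both genes every supplemented library lay above every control (limma adjusted p = 0.172 for Ugcg and 0.06 for B4galt5). Control and supplemented libraries did not overlap in Stra6l, Lrp11 and Gm11557 either. Lrp11, a lipoprotein receptor-related protein, went from 1.74 FPKM in control to 0.879 FPKM in hypoxia and 2.08 FPKM with ethanolamine. A missed threshold against control does not show that a gene is back at its level.

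Overshoot was rare. Usf3, Gm15694, Adamts1 and Idi1 were raised by hypoxia and fell below control with ethanolamine, and no gene lowered by hypoxia was called above control. Gm15694, a processed pseudogene averaging 1.26 FPKM, overlaps Senp5 on the same strand. Senp5 averaged 10.3 FPKM, so reads of these 2 genes may be shared. Gm15694 and Usf3 passed the filter only through the hypoxia libraries, so their falls below control rest on values near the floor. Usf3, a helix-loop-helix factor gene, had 1.84, 0.854 and 0.721 FPKM in control, 4.81, 5.45 and 5.00 FPKM in hypoxia and 0.249, 0.774 and 0.211 FPKM in supplemented libraries. One supplemented library lay within the control range; the call against control (-0.84, SE 0.28, limma adjusted p = 0.0297) held in 13 of 18 other settings and that against hypoxia (-2.67, limma adjusted p = 0.0153) in 14 of 17. Adamts1, a secreted metalloprotease, averaged 15.3, 19.8 and 13.5 FPKM in control, hypoxia and supplemented cells (against control -0.17, limma adjusted p = 0.0342, held in 10 of 19).

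A further 7 genes, all lowered by hypoxia, were lower still with ethanolamine. Cxcl10, an interferon-induced chemokine, had 10.4, 11.2 and 12 FPKM in control, 0.905, 1.34 and 1.13 FPKM in hypoxia and 0.366, 0.431 and 0.412 FPKM in supplemented libraries. The groups did not overlap (against control -3.69, SE 0.12, limma adjusted p = 5.39e-08; against hypoxia -0.84, limma adjusted p = 0.0271, kept in 8 of 17 other settings). The others were Rhou, a small GTPase (7.02, 4.49 and 2.59 FPKM), Abcb1b, a drug efflux transporter (11.5, 6.39 and 4.61 FPKM), Zfp692, Tshz1, Mir5125, which lies within Srrm2, and Gm23833, which lies within Airn. Interferon-stimulated genes as a list had 20 lower and 2 higher of 30 (median -0.80; hypoxia alone 19 and 4, median -0.61), with Rsad2, viperin, at -2.73, Cmpk2 at -2.21, Gbp3 at -1.88 and the exonuclease Isg20 at 1.98.

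The regained, part-way and moved-further genes rest on the 67 calls between the hypoxic groups, and those depend on single libraries. Their number was 0 without hypoxia library 3, 3 without hypoxia library 2, 5 without supplemented library 2, 12 without supplemented library 3 and 22 to 38 without any 1 of the other 5. The unadjusted limma p was under 0.05 for 1730 genes (14.7%) with all libraries and for 1709 without hypoxia library 3. Regained genes accordingly numbered 0 to 9 and part-way genes 0 to 20 when 1 library was left out. Genes that moved further numbered 0 to 5 and overshooting genes 2 to 5. The members changed as well: 0 to 6 of the 12 regained and 1 to 4 of the 4 overshooting genes recurred.

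**Figure D4:**
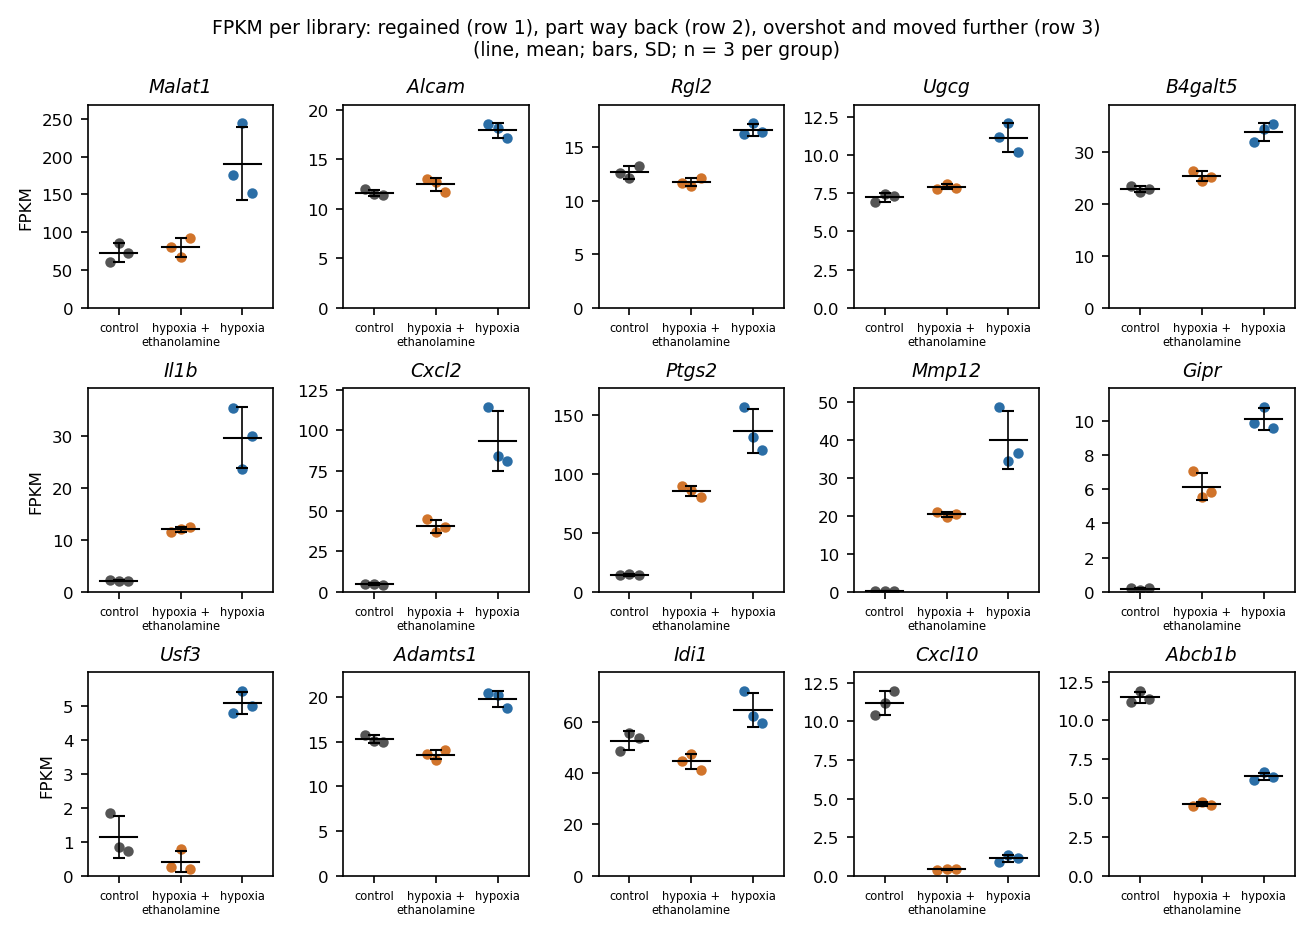
FPKM (linear axis from 0) per library, with the mean as a line and the SD as bars (n = 3 per group). Row 1 shows 5 regained genes, whose supplemented libraries lie nearer the control than the hypoxia mean. In Ugcg and B4galt5 every supplemented library lies above every control. Row 2 shows 5 part-way genes, in between. Row 3 shows Usf3, Adamts1 and Idi1, whose supplemented means of 0.411, 13.5 and 44.6 FPKM lie below control. It also shows Cxcl10 and Abcb1b, lower in supplemented cells than in hypoxia.

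By count, 6072 genes kept their hypoxic change (2457 higher and 3615 lower), with a median absolute log2 change against control of 0.65 with ethanolamine and 0.70 in hypoxia. Another 880 were called in hypoxia alone (420 raised and 460 lowered), with medians of 0.19 and 0.38; 300 of these still had an adjusted p under 0.1 with ethanolamine. A further 786 were called with ethanolamine alone (354 higher and 432 lower), with medians of 0.39 and 0.19 in hypoxia. Among those averaging 5 FPKM or more, the small nucleolar RNA Rnu3a had a log2 change of 1.96, and the 6 lowest changes with no predicted-gene symbol included Srprb, a signal recognition particle receptor subunit (19.9 to 5.63 FPKM, with 12.9 FPKM in hypoxia), Tlr7, an RNA-sensing receptor (12.1 to 6.36 FPKM), and the noncoding RNA Neat1 (9.30 to 4.91 FPKM). Rn7s1, a signal recognition particle RNA, had 34.4, 126 and 117 FPKM in control and 123, 266 and 701 FPKM in supplemented libraries, so the groups overlapped although the gene was called (limma adjusted p = 0.0358), and its copy Rn7s2 may share its reads.

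Microglial identity genes did not return to the control level either. Of 30 listed homeostatic microglia genes 16 passed the filter, and of these 10 were higher and 2 lower than control (median 0.55). Hypoxia alone had 10 higher and 1 lower (median 0.84). Genes low in control pass the filter only if the hypoxic libraries lift their mean, which favours higher calls in such lists. Beside the list counts here stand 24.1% higher and 34.4% lower of all tested genes. Csf1r, the colony-stimulating factor receptor, had 19.3, 17.1 and 17.6 FPKM in control and 68.2, 64.6 and 65.4 FPKM in supplemented libraries, with no overlap (log2 change 1.85, SE 0.06, limma adjusted p = 6.71e-08). Cx3cr1, the fractalkine receptor, went from 0.195 to 2.73 FPKM and Mertk, a phagocytic receptor, from 0.192 to 2.53 FPKM. Both were below 1 FPKM in control and passed the filter only through the hypoxic libraries. Disease-associated microglia genes had 11 higher and 5 lower of 28 (median 0.19), or 10 higher and 7 lower (median 0.05) with quantile normalization. They were led by Lilrb4a, an inhibitory receptor, at 2.12 and the chemokine Ccl4 at 1.81. Reads of Lilrb4a may be shared with its neighbour Lilr4b. Alternative activation genes had 6 higher and 2 lower of 9 tested from 22 listed (median 0.44). Angiogenic and growth factors had 13 higher and 4 lower of 22 tested from 37 listed (median 1.02). Among them the placental growth factor Pgf stood at 2.45 and Csf3 at 2.39. Lysosome genes had 26 higher and 9 lower of 51 (median 0.30), with the proton pump subunit Atp6v1d at 1.08 and the acid lipase Lipa at -1.88, and autophagy genes had 23 higher and none lower of 36 (median 0.34), with Wipi1 at 1.60 and Map1lc3a at 1.08. Immediate early genes had 17 higher and 7 lower of 25 (median 0.73), led by Cyr61 at 2.16 and the phosphatase Dusp6 at 1.97.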

How the data were processed

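RNA sequencing of BV2 cells gave 9 libraries, 3 per group, grouped by sample title. Values for each gene in each library are FPKM as the authors deposited them, for 55335 mouse gene identifiers; the build was GRCm38 per the submitters' processing notes, and no source used here names the aligner or counter. Another deposited table was left aside. FPKM divides by gene length and library total, so growth of 1 abundant class lowers all other values; whole reads could not be recovered.

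Genes averaging 1 FPKM or more were tested on log2(FPKM + 0.5) with limma 3.58.1 (limma-trend; R 4.3.3), fitting the means of 3 groups over all 9 libraries without covariates, two-sided, with Benjamini-Hochberg adjustment at 0.05 over 11802 genes. A gene is regained, part way back, overshot, moved further or kept changed by its calls in the 3 contrasts. The code was tested on simulated data for supplemented against control cells. It recovered 37.3% of added log2 changes of 0.5, 85.1% of changes of 1 and 92.4% of changes of 2. Changes of 0.5 were thus often missed. Of symbols with 2 identifiers, the one with the higher mean entered a list. Gene overlaps were read from the GENCODE annotation, which held 55154 of the identifiers. Tables and figures used Python 3.11.15 with pandas 2.3.3 and matplotlib 3.10.9.

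The genes named are the 12 highest and 12 lowest called changes among genes averaging 5 FPKM or more with no predicted-gene symbol, up to 4 members per list by size of change, all members or 12 of each small class, up to 12 of each large class and 16 fixed genes; the others are marked in the text. Some named genes are not reported here. Members, lists and rules were chosen with earlier results of these data known. Other settings tried were a pseudocount of 0.1 or 1, filters at 0 or 5 FPKM, scaling by median of ratios or by quantiles, library sums taken without ribosomal RNA-like and mitochondrial transcripts, a replicate block, a fit to the compared groups alone, no trend of variance on level, and each library omitted in turn.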

Additional observations from a re-analysis of the deposited data

How the results depend on the processing

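The count of genes called against control lay between 6215 and 6919 when 1 library was left out and was 4603 (2669 lower) with a mean of at least 5 FPKM, where fewer genes were tested. Genes higher numbered 2536 to 2848 and genes lower 3679 to 4071 with 1 library left out. The higher share of calls was 41.1%, and 49.3%, 48.0% and 36.0% with median-of-ratios scaling, quantile normalization and the rescaling. With 1 library left out, genes that kept their change numbered 5519 to 5975, those no longer called 653 to 1240, those called with ethanolamine alone 521 to 1045 (521 without supplemented library 2), part-way genes 0 to 20, regained genes 0 to 9, genes that moved further 0 to 5 and overshooting genes 2 to 5. With a mean of at least 5 FPKM, 511 genes were no longer called, 450 were called with ethanolamine alone, 7 were regained and 3 moved further. Without a filter these were 1489 no longer called, 17 part way back, 2 moved further and 2 overshot. Median-of-ratios scaling gave 7 regained, 6 of them among the 12. The cause of these changes was not tested. Deviations from the group means correlated at -0.117 to 0.109 for same-numbered libraries and at -0.163 to 0.163 for the others. This does not show whether the numbers pair the libraries. With the replicate number as a block, limma called 6765 genes against control and 0 between the hypoxic groups (1629 at an unadjusted p under 0.05), so 0 genes came part way back, 0 were regained and 0 moved further, and 2 overshot. Directions against control turned for uncalled genes near 0: Etnk1 (0.085 and 0.12 with median-of-ratios and quantile scaling, -0.092 to 0.044 with 1 library left out), Mir133a-2 (0.018 and 0.051 with those scalings, -0.26 to 0.12 with 1 library left out), Epas1 (-0.22 to 0.0046 with 1 library left out), B3gnt2 (-0.35 to 0.41 with 1 library left out) and Gm11557 (-0.083 with quantile scaling). The called mt-Co1 turned to -0.71 with quantile normalization and was not called without a filter. The absolute depth is unknown, so no counting interval can be given.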

Other observations

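Further stress and immune lists held calls in both directions in ethanolamine under hypoxia against control, beside 24.1% higher and 34.4% lower of all tested genes. NRF2 targets had 12 lower and 4 higher of 27 tested members, with the quinone reductase Nqo1 at -1.95, the cystine transporter Slc7a11 at -1.41 and Hmox1 at 1.69 on the log2 scale. Unfolded protein response genes had 10 lower and 7 higher of 30, near those shares, with the protein disulfide isomerase P4hb at 1.25 and Manf at -0.61. The median of that list was -0.07, which median-of-ratios scaling turned to 0.025 with 7 lower and 10 higher. Antigen presentation genes had 7 higher and 4 lower of 20, with the invariant chain Cd74 at 1.76 and the immunoproteasome subunit Psmb10 at -1.22. Of p53 targets 7 were higher and 8 lower of 22 (7 and 7 with median-of-ratios scaling), also near them, with Cdkn1a at 3.39 and the exonuclease Aen at -1.59. The noncoding RNA Xist averaged 80.8 FPKM in control, 82.4 FPKM in hypoxia and 51.0 FPKM with ethanolamine (log2 change against control -0.66, limma adjusted p = 0.00297; against hypoxia -0.68, limma adjusted p = 0.0802).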
